A study of Mus musculus with 12 samples.

Results

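The genes described here are 10 genes of antigen presentation, taken from the 55450 genes of the count table by their symbols: H2-K1, H2-D1, B2m, Tap1, Psmb8, Psmb9, Cd74, H2-Aa, H2-Ab1 and H2-Eb1. All 10 symbols were found, each on 1 row, and all 10 had enough counts to be tested in every comparison.

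MHC class I molecules show peptides from inside the cell to CD8 T cells. Their heavy chains, encoded in the mouse by H2-K1 and H2-D1, pair with the light chain encoded by B2m. The peptides are cut by the proteasome, in which the interferon-inducible subunits encoded by Psmb8 and Psmb9 can take the place of constitutive subunits, and are carried into the endoplasmic reticulum by a transporter of which Tap1 encodes a subunit. MHC class II molecules show peptides from material taken up by the cell to CD4 T cells. H2-Aa and H2-Ab1 encode the chains of I-A, H2-Eb1 encodes the beta chain of I-E, and Cd74 encodes the invariant chain that guides class II molecules to the endosome. Class II is made mainly by professional antigen-presenting cells, while class I is found on most nucleated cells and is known to be sparse on resting neurons.

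Brains and livers of males, 7 to 9 weeks old and either wild type (Vaultrc5+/+) or Vaultrc5-/-, gave total RNA for sequencing, with 3 libraries in each of 4 groups and 12 in all. Vaultrc5 encodes a small non-coding vault RNA, and the study asked whether the mouse needs it. The titles of the wild-type libraries carry the word flx, the labels name no strain and no Cre, and nothing says whether a brain and a liver library with the same number came from the same animal. The labels also do not say that replicates came from separate animals, so p-values measure the spread between these libraries, which may be technical.

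Depth ran from 14844971 to 18567381 counts per brain library and from 23247449 to 27155480 per liver library. The counts of Vaultrc5 were 33, 39 and 48 in wild-type livers, 4, 1 and 4 in wild-type brains and 0 in all 6 knockout libraries, so the labels of the livers are checked by it and those of the brains only at a handful of counts. Of the tissue markers, 4 neuron genes summed to 3329 to 4556 CPM in brain and 28.4 to 36.9 CPM in liver. The 4 hepatocyte genes summed to 52859 to 89304 CPM in liver and to 0.451 to 438 CPM in brain. Of these genes Ttr, which the choroid plexus also makes, had 162, 304 and 437 CPM in the 3 brains with the highest sums and 0.205 to 2.62 CPM in the others. Alb, the hepatocyte albumin gene, lay between 40237 and 71990 CPM in liver and between 0 and 0.221 CPM in brain. CPM are counts scaled to a common library size, with TMM over all 12 libraries, and 3 counts, taken as the floor, correspond to 0.123 to 0.169 CPM. This floor differs between libraries through their scaled depth and takes no account of the spread between libraries.

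The promoter sequences of 4 members are shown. They cover, among the members, the class I heavy chain with the larger difference between the tissues, its light chain and 2 class II chains. These 2, of I-A and of I-E, are not partners, and all 4 class II members were highest in the same libraries. No promoter window was held for H2-Ab1, the partner of H2-Aa. The sequences are the 150 bases before the RefSeq start on GRCm38.p6, written 5′ to 3′ on the strand of the gene, with matches to 2 motifs in capitals.
H2-K1: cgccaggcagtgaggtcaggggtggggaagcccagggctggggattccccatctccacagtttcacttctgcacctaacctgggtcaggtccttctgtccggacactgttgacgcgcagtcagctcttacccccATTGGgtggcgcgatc
B2m: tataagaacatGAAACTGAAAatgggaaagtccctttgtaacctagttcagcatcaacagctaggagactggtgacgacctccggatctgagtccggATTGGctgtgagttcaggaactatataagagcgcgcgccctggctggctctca
H2-Aa: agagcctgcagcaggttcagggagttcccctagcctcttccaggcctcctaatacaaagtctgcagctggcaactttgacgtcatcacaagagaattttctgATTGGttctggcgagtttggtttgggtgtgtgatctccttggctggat
H2-Eb1: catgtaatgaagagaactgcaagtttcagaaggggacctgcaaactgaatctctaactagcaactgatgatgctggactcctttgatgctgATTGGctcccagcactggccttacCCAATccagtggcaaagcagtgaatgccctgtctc
These stretches lie at chr17:34000348-34000497 (minus strand) for H2-K1, chr2:122147537-122147686 (plus strand) for B2m, chr17:34287824-34287973 (minus strand) for H2-Aa and chr17:34305717-34305866 (plus strand) for H2-Eb1. Both strands were searched for CCAAT, the box bound by NF-Y, which reads ATTGG on the opposite strand. They were also searched for the core of the interferon-stimulated response element, a pair of GAAA blocks with any 2 bases between them. CCAAT was found once in the stretches of H2-K1, B2m and H2-Aa and at 2 places in that of H2-Eb1, and the interferon motif once, 139 bases before the start of B2m. Of the 8 members with a promoter window, 6 had CCAAT in these 150 bases (H2-D1 and Psmb9 as well), Tap1 and Psmb8 did not, and the interferon motif was found in that of B2m alone. Among all 32851 promoter windows of RefSeq, CCAAT was present in 24.5% of the 150-base stretches and the interferon motif in 1.59%. A match describes the letters and shows no binding.

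On the GRCm38 build (GENCODE M21 annotation), 8 of the 10 genes lie on chromosome 17, in the mouse major histocompatibility complex. H2-K1 spans 33996017 to 34000347 on the minus strand. Psmb9 (34181987 to 34187764, minus strand) and Tap1 (34187553 to 34197225, plus strand) overlap by 212 bases at their starts, and Psmb8 (34197721 to 34201454, plus strand) begins 495 bases after Tap1. H2-Ab1 (34257689 to 34269419, plus strand), H2-Aa (34282744 to 34287823, minus strand) and H2-Eb1 (34305867 to 34316674, plus strand) follow. H2-D1 lies 946055 bases further on, at 35262730 to 35267499 on the plus strand. B2m is on chromosome 2, at 122147686 to 122153083, and Cd74 on chromosome 18, at 60803848 to 60812652, both on the plus strand. Each region covers the whole annotated gene, exons and introns.

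The question put to brain and liver was how the 10 genes are distributed over the 2 tissues in each genotype. Every member was lower in brain than in liver, by 15.3-fold (H2-D1) to 107-fold (H2-K1) in the wild type, and no brain library overlapped a liver library for any of them, against 36.6% of all genes tested that were lower in brain without overlap. The class I heavy chain H2-K1 and the light chain B2m stood at 591 to 1825 CPM in liver and at 5.53 to 31.3 CPM in brain. The class II genes, transporter and proteasome subunits stood at 7.42 to 112 CPM in liver and at 0.135 to 3.57 CPM in brain. The plot of the levels in every library shows this separation for each gene.

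**Figure D1:**
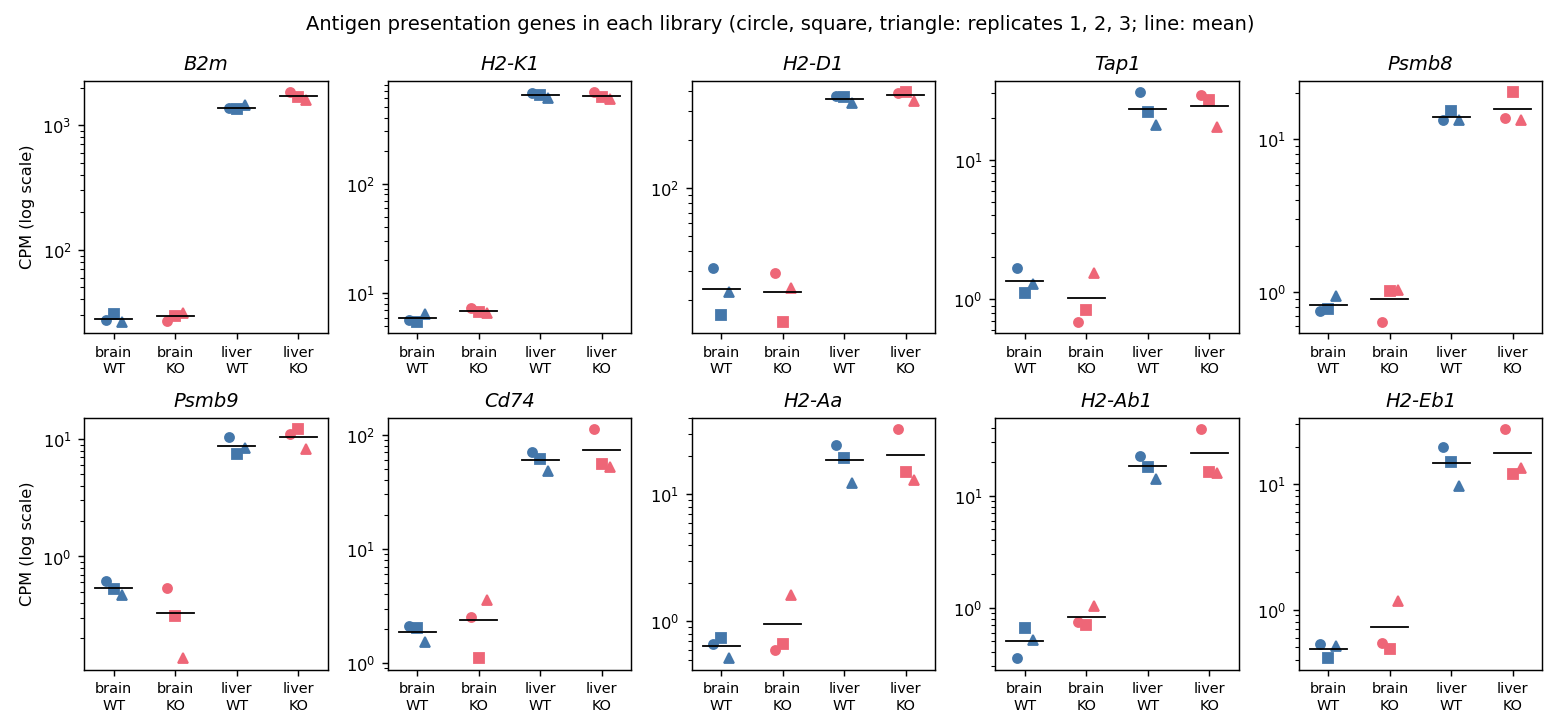
Level of each of the 10 genes in each of the 12 libraries, in CPM on a log axis that differs between panels (WT, wild type; KO, knockout; symbols, replicates 1, 2 and 3; line, group mean of 3). In every panel the 6 liver points lie above the 6 brain points, and for H2-K1 the brain points sit at 5.53 to 7.36 CPM and the liver points at 591 to 678 CPM.

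H2-K1 encodes the K heavy chain of class I. Its levels were 5.71, 5.53 and 6.53 CPM in wild-type brain and 7.36, 6.74 and 6.64 CPM in knockout brain. In liver they were 672, 639 and 602 CPM in the wild type and 678, 611 and 591 CPM in the knockout. The replicates of a group were close, and the brain level was 107-fold lower in the wild type and 90.9-fold lower in the knockout. The log2 fold change of brain over liver was -6.74 ± 0.15 (SE, n = 3 per group) in the wild type (edgeR, adjusted p = 6.62e-08) and -6.51 ± 0.14 in the knockout (adjusted p = 1.14e-07).

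H2-D1, the D heavy chain of class I, had 31.7, 16.0 and 22.5 CPM in wild-type brain and 29.3, 14.6 and 23.5 CPM in knockout brain. In liver it had 373, 371 and 338 CPM in the wild type and 391, 393 and 347 CPM in the knockout. The brain libraries spread by 2.18-fold from lowest to highest, while the liver libraries spread by 1.16-fold; in brain, replicate 1 was the highest and replicate 2 the lowest of each genotype. The sum of 6 dendritic cell markers had the same order in brain, at 61.5, 20.8 and 29.1 CPM in the wild type and 56.8, 21.4 and 36.0 CPM in the knockout; 3 of the 6 had counts in every brain library of a group, Xcr1 and Clec9a were at 0 in all 3 wild-type brains, and Zbtb46 gave 43.4, 12.9 and 13.9 CPM of the wild-type sum. That order was the order of Zbtb46 and Flt3 alone. Itgax, at 1 to 9 counts per brain, was lowest in replicate 1 of the wild type and highest in replicate 2 of the knockout, and Flt3 was higher in brain than in liver (means of 13.6 and 0.655 CPM in the wild type). The sum of 4 markers of stellate cells and pericytes also had this order in brain, at 343, 125 and 153 CPM in the wild type and 332, 117 and 236 CPM in the knockout, most of it Reln, which neurons make too and which was the 1 marker of the 4 with its highest level in wild-type replicate 1. The part of these cells in the H2-D1 levels was not tested. Brain over liver, the log2 fold change of H2-D1 was -3.94 ± 0.25 in the wild type (edgeR, adjusted p = 3.83e-06) and -4.07 ± 0.27 in the knockout (adjusted p = 5.70e-06).

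B2m, the light chain that class I heavy chains need to reach the surface, had 27.2, 30.3 and 26.6 CPM in wild-type brain and 27.1, 29.7 and 31.3 CPM in knockout brain. Its liver levels were 1371, 1337 and 1438 CPM in the wild type and 1825, 1670 and 1599 CPM in the knockout. The brain libraries of the 2 genotypes overlapped, and the liver libraries did not. The log2 fold change of brain over liver was -5.61 ± 0.14 in the wild type (edgeR, adjusted p = 6.89e-08) and -5.86 ± 0.16 in the knockout (adjusted p = 1.40e-07).

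Tap1, the peptide transporter subunit, had 1.68, 1.11 and 1.28 CPM in wild-type brain and 0.691, 0.837 and 1.53 CPM in knockout brain, from 14 to 38 counts per library after rounding. In liver it had 30.3, 21.8 and 17.7 CPM in the wild type and 29.1, 26.9 and 17.2 CPM in the knockout. In liver, replicate 1 was the highest and replicate 3 the lowest of each genotype. The log2 fold change of brain over liver was -4.09 ± 0.27 in the wild type (edgeR, adjusted p = 4.53e-06) and -4.57 ± 0.35 in the knockout (adjusted p = 1.27e-05).

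Psmb8, the immunoproteasome subunit that takes the place of Psmb5, had 0.752, 0.779 and 0.939 CPM in wild-type brain and 0.642, 1.01 and 1.04 CPM in knockout brain. Its liver levels were 13.4, 15.4 and 13.4 CPM in the wild type and 13.8, 20.3 and 13.4 CPM in the knockout, where replicate 2 stood above the other 5 livers. Psmb9, which takes the place of Psmb6, had 0.619, 0.533 and 0.470 CPM in wild-type brain and 0.543, 0.308 and 0.135 CPM in knockout brain. The last of these values is 3 counts, the floor. Psmb9 liver levels were 10.4, 7.42 and 8.39 CPM in the wild type and 11.1, 12.2 and 8.19 CPM in the knockout. The log2 fold changes of brain over liver in the wild type were -4.08 ± 0.19 for Psmb8 (edgeR, adjusted p = 6.08e-07) and -3.99 ± 0.25 for Psmb9 (adjusted p = 3.06e-06).

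The class II genes had few counts in brain. Cd74, the invariant chain, had 2.12, 2.01 and 1.54 CPM in wild-type brain and 2.52, 1.10 and 3.57 CPM in knockout brain, against 70.7, 61.4 and 48.1 CPM in wild-type liver and 112, 55.2 and 52.2 CPM in knockout liver. H2-Aa, the I-A alpha chain, had 0.664, 0.738 and 0.512 CPM in wild-type brain and 0.593, 0.661 and 1.63 CPM in knockout brain, against 24.5, 19.3 and 12.2 CPM in wild-type liver and 32.6, 15.1 and 13.1 CPM in knockout liver. For both genes the liver of knockout replicate 1 and the brain of knockout replicate 3 were the highest of their tissue. H2-Ab1, the I-A beta chain, had 0.354, 0.656 and 0.512 CPM in wild-type brain and 0.741, 0.705 and 1.04 CPM in knockout brain, against 22.5, 18.1 and 14.2 CPM in wild-type liver and 39.3, 16.4 and 15.9 CPM in knockout liver. H2-Eb1, the I-E beta chain, had 0.531, 0.410 and 0.512 CPM in wild-type brain and 0.543, 0.485 and 1.17 CPM in knockout brain, against 19.8, 14.9 and 9.75 CPM in wild-type liver and 27.5, 12.1 and 13.5 CPM in knockout liver. In brain these 3 chains rested on 8 to 36 counts per library. The log2 fold changes of brain over liver in the wild type ran from -5.14 ± 0.29 for H2-Ab1 to -4.85 ± 0.33 for H2-Aa, with -4.98 ± 0.21 for Cd74 and -4.92 ± 0.34 for H2-Eb1.

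By edgeR's quasi-likelihood test with Benjamini-Hochberg adjustment, all 10 members were called lower in brain in the wild type, where 34.7% of the 18850 genes tested were called lower and 78.6% were called in either direction. In the knockout libraries, which the wild-type comparison did not use, all 10 were again called lower, against 35.2% of 18785 genes (78.7% in either direction), and again without overlap (36.6%). The median log2 fold change of the members was -4.88 in the wild type and -4.71 in the knockout, beside 0.21 over all genes tested in each. Scaling by library totals in place of TMM moved the median of all genes to 1.05 in the wild type and 1.08 in the knockout, the share of calls that were higher in brain from 55.8% to 74.4% in the wild type and from 55.3% to 75.1% in the knockout, and the median of the members to -4.04 and -3.84; all 10 members remained lower in brain. In whole tissue, fewer cells that express a gene and less RNA of it per cell cannot be told apart.

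**Figure D2:**
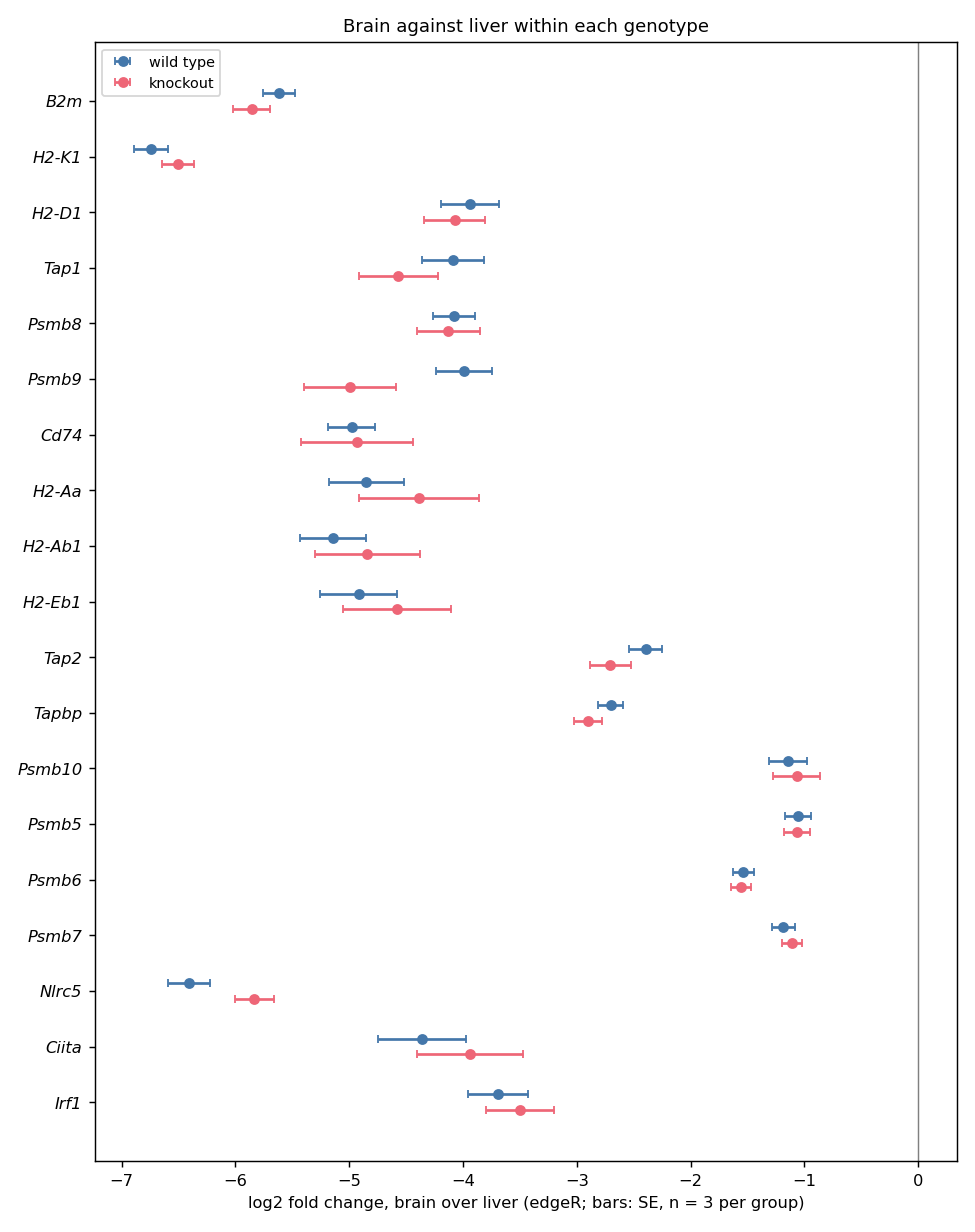
Log2 fold change of brain over liver in the wild type and the knockout for the 10 members and 9 further genes of the pathway (points; bars, SE from the edgeR fit, n = 3 libraries per group). All points lie left of 0, with H2-K1 at -6.74 and the constitutive subunit Psmb5 at -1.05 in the wild type.

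The other genes of the pathway came from 4 lists, which held no members in the counts below. Beside these counts, 34.7% of all genes tested were called lower in brain in the wild type and 35.2% in the knockout. Of the 19 further class I genes tested (20 listed), all 19 fell in brain in both genotypes. Within brain only 15 of the 20 had enough counts to be tested. H2-Q1, H2-Q6, H2-Q10 and Cd1d1 did not, and they entered the comparison of tissues through their liver counts. The direction of these genes was thus set by the filter. H2-Q10, a class I molecule secreted by the liver, lay at 1542 to 1790 CPM in wild-type liver and at 0 to 3.2 counts per library in wild-type brain, so no fold change is given. Cd1d1, which presents lipids to NKT cells, was 358-fold lower in wild-type brain, at 5 to 26 counts per brain library. Nlrc5, the transactivator of class I genes, was 84.8-fold lower in wild-type brain (log2 fold change -6.41 ± 0.19) and 57.1-fold lower in knockout brain (-5.84 ± 0.17). The fall was smaller for the rest of the peptide loading machinery, at -2.40 ± 0.14 for Tap2, the partner of Tap1, and -2.70 ± 0.11 for Tapbp, the bridge between the transporter and class I, in the wild type. H2-Q7 (-6.92 ± 0.32) and H2-Q6 (-6.25 ± 0.36) are class I genes with near-identical copies, and the assignment of their reads is uncertain. In wild-type brain they also rested on few expected counts, 5.89 to 19.25 for H2-Q7 and 2.16 to 8.7 for H2-Q6. The lowest H2-Q6 value lies below the floor of 3 counts.

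Of the 9 further proteasome genes, all 9 fell in brain in both genotypes, with a median log2 fold change of -1.26 in the wild type. Psmb10, the third immunoproteasome subunit, fell by 1.14 ± 0.17 on the log2 scale in the wild type, and the constitutive subunits Psmb5, Psmb6 and Psmb7 fell by 1.05 ± 0.11, 1.54 ± 0.09 and 1.18 ± 0.10. With library totals in place of TMM, 10 of the 52 further genes of all 4 lists tested were called higher in wild-type brain and 31 lower, in place of 1 and 42. Small differences such as those of the constitutive subunits are therefore to be read against the shift of all genes given above.

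Of 12 further class II genes tested (17 listed), 7 fell, 1 rose and 4 did not pass the test in the wild type, and 8 fell, 1 rose and 3 did not pass in the knockout. Ciita, the transactivator of class II genes, was 20.6-fold lower in wild-type brain (log2 fold change -4.36 ± 0.39) and had 2 to 8 counts in the 6 brain libraries. Ciita and H2-Ob, both among those that fell in the wild type, had too few counts to be tested within brain. They entered through their liver counts, so their direction was set by the filter. Rfxap, a subunit of the RFX factor that binds class II promoters, was the gene that rose, by 0.77 ± 0.18 in the wild type (edgeR, adjusted p = 0.00483) and 0.69 ± 0.20 in the knockout (adjusted p = 0.0134). Of 12 further genes of interferon gamma signalling, 7 fell and 5 did not pass in each genotype. The share of all genes called lower was 34.7% in the wild type and 35.2% in the knockout, and the list counts shift with the scaling, as given above for all 4 lists. Irf1, an interferon-induced transcription factor, fell by 3.69 ± 0.26 on the log2 scale in the wild type. Ifng itself had no count in 11 of the 12 libraries and 1 count in the other.

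Levels of different genes can be compared only per length, here as CPM per kilobase of merged exons. In liver the order in the wild type was B2m at 1607 ± 59.9 (SD, n = 3), H2-K1 at 217 ± 11.8, H2-D1 at 140 ± 7.54 and Cd74 at 35.8 ± 6.79, with no overlap between neighbours. H2-Eb1 (7.63), H2-Ab1 (7.11), H2-Aa (4.91), Tap1 (4.24) and Psmb8 (4.16) followed, each overlapping the next, and Psmb9 was the lowest at 2.38 ± 0.41, below all 3 values of Psmb8. These levels depend on the length used. With the longest transcript H2-K1 stood at 340, H2-Ab1 at 15.1 and Psmb8 at 7.37 in wild-type liver, while B2m kept its level. In brain the order of the heavy chains was the other way round. The wild-type order there was B2m at 32.6 ± 2.32, H2-D1 at 9.07 ± 3.07, H2-K1 at 2.02 ± 0.18 and Cd74 at 1.13 ± 0.19, again with no overlap, while the other 6 genes lay between 0.148 and 0.249 and overlapped their neighbours. The same 4 genes held the first 4 places, without overlap, in the knockout tissues.

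The ratio of H2-D1 to H2-K1 was computed after this order had been seen. Per length it was 6.33, 3.29 and 3.92 in the wild-type brains and 4.53, 2.46 and 4.03 in the knockout brains. Wild-type livers gave 0.633, 0.661 and 0.640, and knockout livers 0.657, 0.733 and 0.669. All 6 brains thus had more H2-D1 than H2-K1 per length and all 6 livers less. On the log2 scale brain exceeded liver by 2.75 ± 0.28 (SE, n = 3 per group) in the wild type and 2.38 ± 0.27 in the knockout (exact two-sided permutation test, p = 0.1 for each, the smallest that 3 libraries against 3 allow; adjusted p = 0.2 over 4 tests). Near-identical class I copies limit this ratio, because 9.63% of the 50-base words of H2-K1 transcripts and 12.8% of those of H2-D1 also occur in other genes, and the counts were fractional in 8 of 12 libraries for H2-K1 and in all 12 for H2-D1.

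The immunoproteasome subunits were set against the constitutive subunits they replace, as ratios of length-scaled levels. The size of a ratio depends on the length used, while a fold between groups does not. With the longest transcript, Psmb8 to Psmb5 had means of 0.0168 in wild-type brain and 0.138 in wild-type liver, in place of 0.00949 and 0.0778. Psmb9 to Psmb6 had 0.00576 and 0.0318, in place of 0.00879 and 0.0485. Psmb8 to Psmb5 was 0.00968, 0.00901 and 0.00980 in the wild-type brains and 0.0709, 0.0837 and 0.0788 in the wild-type livers. In the knockout it was 0.00903, 0.0140 and 0.0123 in brain and 0.0860, 0.120 and 0.0925 in liver. The ratio was 8.18-fold lower in brain in the wild type and 8.50-fold lower in the knockout, with no overlap. Psmb9 to Psmb6 was 0.0101, 0.00894 and 0.00734 in the wild-type brains and 0.0577, 0.0420 and 0.0458 in the wild-type livers, a 5.51-fold difference. In the knockout it was 0.00942, 0.00549 and 0.00244 in brain and 0.0645, 0.0764 and 0.0497 in liver, a 12.5-fold difference that rests on 3 to 11 counts of Psmb9 in each brain. Psmb10 to Psmb7 had means of 0.404 ± 0.053 (SD, n = 3) in wild-type brain, 0.409 ± 0.110 in knockout brain, 0.397 ± 0.048 in wild-type liver and 0.396 ± 0.061 in knockout liver. Its log2 difference between brain and liver was 0.02 ± 0.15 in the wild type and 0.02 ± 0.27 in the knockout. In exact two-sided permutation tests of the 12 comparisons made on the 3 ratios, 5 reached p = 0.1, the smallest possible (adjusted p = 0.24): both brain-liver comparisons for Psmb8 and for Psmb9, and Psmb8 to Psmb5 in liver, which was higher in the knockout by 0.35 ± 0.16 on the log2 scale. There Psmb8 itself was at 0.18 ± 0.18 with overlapping libraries and Psmb5 at -0.19 ± 0.09 without overlap. Leaving out knockout replicate 2 took Psmb8 to -0.05. The permutation left out the pairing of the livers by number, and a test within pairs was not run. The reads of Psmb8 can be mixed with those of the antisense gene Gm20496, which holds 11.6% of its 50-base words, and those of Psmb9 with those of Tap1 (4.19%); the use of strand in counting is not given in the sources used here.

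**Figure D3:**
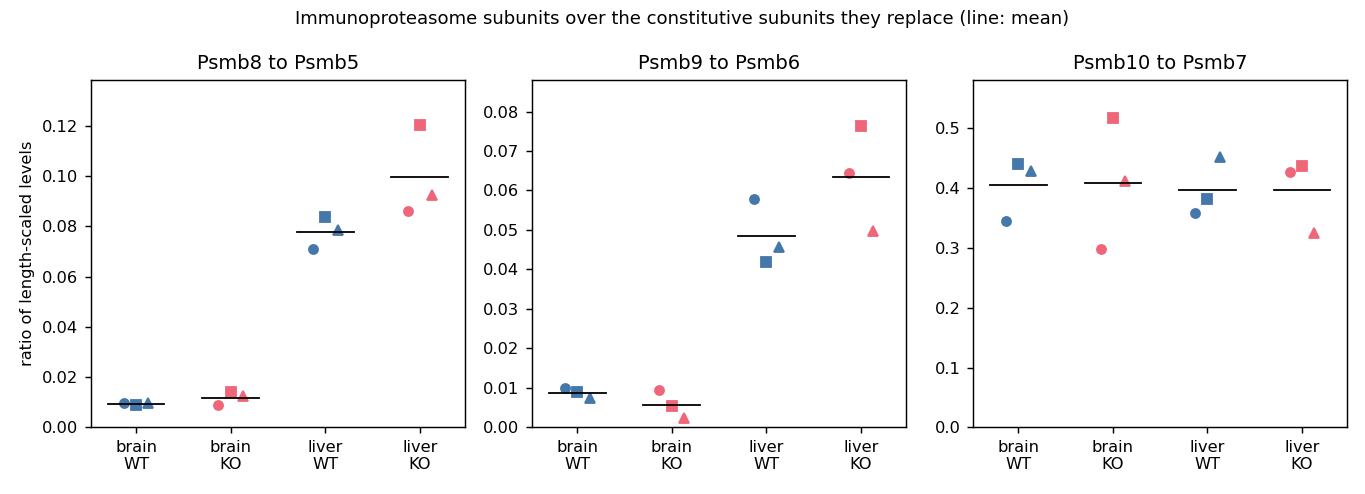
Ratio of the length-scaled level of each immunoproteasome subunit to the constitutive subunit it replaces, for every library (WT, wild type; KO, knockout; symbols, replicates 1, 2 and 3; line, group mean; axes start at 0). Psmb8 to Psmb5 and Psmb9 to Psmb6 are lower in all brains than in all livers, while Psmb10 to Psmb7 lies between 0.298 and 0.517 in both tissues.

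The comparison of knockout with wild type asked whether loss of Vaultrc5 altered these genes in either tissue. No member passed the test in brain or liver, and no gene of the whole table did (edgeR, 0% of 18075 genes called in brain and 0% of 15329 in liver; at an unadjusted p under 0.05, 122 genes or 0.675% in brain and 536 or 3.50% in liver). These edgeR tests did not use the replicate numbers, by which the livers were taken as paired. With the replicate number as a block edgeR called 2 genes in liver and 983 had an unadjusted p under 0.05. DESeq2 called 0 genes in brain and 10 in liver. No member was among the genes called by DESeq2 or with the block. The members' median log2 fold change of knockout over wild type was 0.17 in brain, beside -0.01 over all genes, and 0.22 in liver, beside 0.01. The sign was positive for 7 of 10 members in brain and 9 of 10 in liver, and the genes of a class share their libraries, so these are not independent counts. Without knockout replicate 3 of the brain 4 of 10 were positive there, and without knockout replicate 1 of the liver 4 of 10 were positive in liver. The other single libraries left out gave 7 to 8 in brain and 7 to 10 in liver.

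In brain, the 3 knockout libraries of H2-K1 (6.64 to 7.36 CPM) all lay above the 3 wild-type libraries (5.53 to 6.53 CPM), a log2 fold change of 0.22 ± 0.14. H2-Ab1 did so too, at 0.705 to 1.04 CPM over 0.354 to 0.656 CPM, with 0.70 ± 0.36. These 2 of 10 members without overlap compare with 4.23% of all genes tested (1.93% higher in the knockout), and edgeR's adjusted p was 1.00 for both. The estimates were -0.73 ± 0.50 for Psmb9, -0.40 ± 0.38 for Tap1, 0.60 ± 0.45 for H2-Eb1, 0.59 ± 0.47 for H2-Aa and 0.34 ± 0.42 for Cd74, all with adjusted p = 1.00 and with overlapping libraries. Leaving out 1 brain library at a time gave -1.26 (without knockout replicate 1) to -0.36 (without knockout replicate 3) for Psmb9 and -0.83 (without knockout replicate 3) to -0.19 (without knockout replicate 1) for Tap1. H2-D1 (-0.06 ± 0.32), B2m (0.06 ± 0.10) and Psmb8 (0.12 ± 0.31) differed by less than their standard errors.

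In liver, B2m was higher in all 3 knockout libraries (1599 to 1825 CPM) than in the 3 wild-type libraries (1337 to 1438 CPM), the 1 of 10 members without overlap, beside 9.62% of all genes tested (4.16% higher in the knockout). Its log2 fold change was 0.30 ± 0.11 (edgeR, adjusted p = 0.992). The heavy chains differed by -0.02 ± 0.10 (H2-K1) and 0.07 ± 0.10 (H2-D1), so B2m was the sole class I chain with an unadjusted p under 0.05. Psmb9 (0.27 ± 0.19), Psmb8 (0.18 ± 0.18) and Tap1 (0.08 ± 0.26) did not pass the test. The class II genes gave 0.38 ± 0.39 for H2-Ab1, 0.28 ± 0.32 for Cd74, 0.26 ± 0.39 for H2-Eb1 and 0.12 ± 0.42 for H2-Aa, with adjusted p from 0.992 to 0.997. The standard errors of these 4 genes, 0.32 to 0.42, compare with 0.10 to 0.11 for the 3 class I chains when the pairing of the livers is left out. With the replicate number as a block they were 0.14 to 0.17 for the 4 genes and 0.09 to 0.12 for the 3 chains, so most of that gap went.

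**Figure D4:**
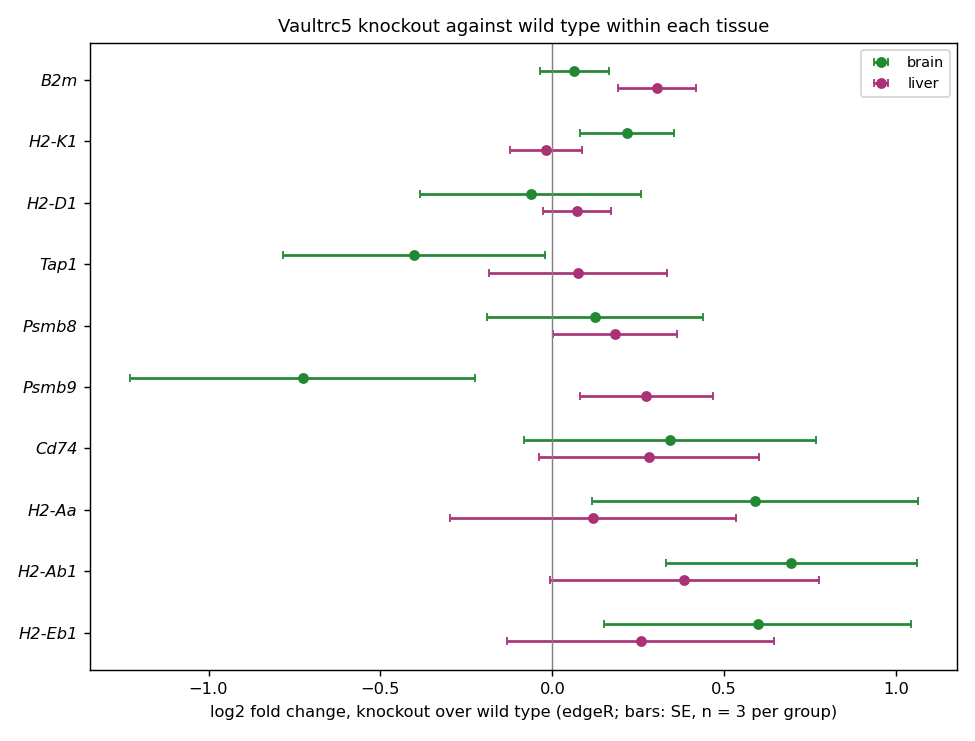
Log2 fold change of knockout over wild type for the 10 genes in brain and liver (points; bars, SE from the edgeR fit, n = 3 libraries per group). B2m in liver lies at 0.30 and Psmb9 in brain at -0.73, and no gene passed the test in either tissue.

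Whether the effect of the knockout differed between the tissues was tested with an interaction term fitted on all 12 libraries, and no member and no gene was called (edgeR, 0% of 20141 genes; 489 genes or 2.43% at an unadjusted p under 0.05; 1 gene by DESeq2 and 2 by edgeR with the replicate block). Among the members Psmb9 had the largest estimate, 0.98 ± 0.48 towards liver (edgeR, adjusted p = 1.00), at 3 to 14 counts per brain library. With 1 library left out it ran from 0.65 (without brain knockout replicate 3) to 1.51 (without brain knockout replicate 1). H2-K1 (-0.25 ± 0.15) and B2m (0.22 ± 0.16) had the next smallest p among the members.

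None of the further genes of the 4 lists was called in any knockout comparison. In brain the smallest p was that of Nlrc5, which was higher in all 3 knockout libraries (0.722 to 1.14 CPM over 0.427 to 0.619 CPM; log2 fold change 0.70 ± 0.33, adjusted p = 1.00 by edgeR). Tapbp (-0.21 ± 0.12, no overlap) and Erap1, the peptidase that trims class I peptides (-0.27 ± 0.16), came next. Psmb6 was also lower in all 3 knockout brains, at -0.13 ± 0.08. These 3 genes without overlap (Nlrc5, Tapbp and Psmb6) are 6.52% of the 46 further genes tested, beside 4.23% of all genes. In liver Psme3, a proteasome activator (0.22 ± 0.09), Ifi30, the lysosomal thiol reductase of the class II route (0.37 ± 0.17), and Psmb5 (-0.19 ± 0.09, no overlap) had the smallest p by edgeR, with adjusted p = 0.992. Psmb6 and Psmb7 were likewise below the wild type in all 3 knockout livers, at -0.11 ± 0.07 and -0.13 ± 0.08, as was Rfx5 at -0.12. The 4 genes without overlap (Psmb5, Psmb6, Psmb7 and Rfx5) are 7.55% of the 53 further genes tested, beside 9.62% of all genes. For the interaction Nlrc5 was first, at -0.59 ± 0.25 (edgeR, adjusted p = 1.00), before Erap1 (0.27 ± 0.15) and Rfxank (0.29 ± 0.19).

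The 4 class II genes had their highest level in the same library, 1 in each tissue. In liver, knockout replicate 1 was the highest for 4 of 4 class II genes, at 2.02 to 2.40 times the median of the other 5 livers; wild-type replicate 1 was next for 4 of 4 and wild-type replicate 3 the lowest for 4 of 4. Ciita had its highest liver value in the same library (4.42 CPM; the others 2.36 to 3.94 CPM). In brain, knockout replicate 3 was the highest for 4 of 4, at 1.58 to 2.46 times the median of the others, and Ciita was highest there at 0.361 CPM, or 8 counts. The plot of class II levels relative to the wild-type mean shows both libraries.

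**Figure D5:**
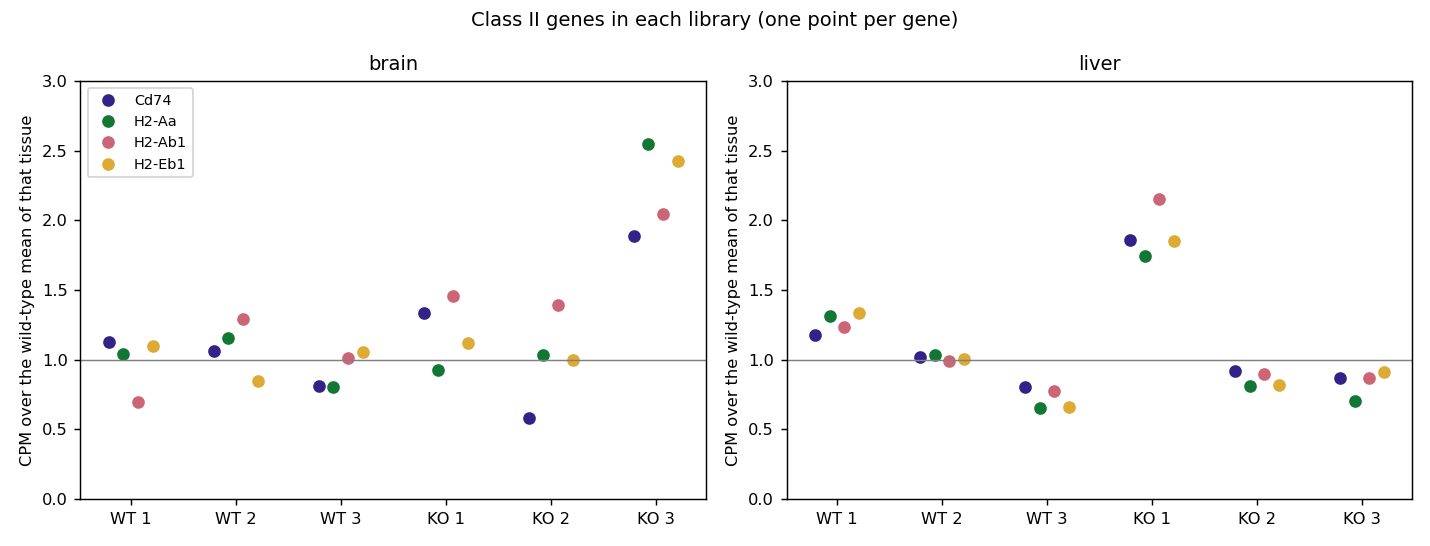
CPM of Cd74, H2-Aa, H2-Ab1 and H2-Eb1 in each library divided by the mean of the 3 wild-type libraries of that tissue (grey line at 1; WT, wild type; KO, knockout; each point is 1 gene in 1 library). In liver all 4 genes are highest in KO 1, and in brain all 4 are highest in KO 3.

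Without liver knockout replicate 1, the log2 fold changes of knockout over wild type in liver were -0.14 for Cd74, -0.38 for H2-Aa, -0.15 for H2-Ab1 and -0.19 for H2-Eb1, all negative. That leaves in wild-type replicate 1, the second highest library for all 4 genes, which has the same number. With the replicate number as a block and all 6 livers kept, the values were 0.22 ± 0.15 for Cd74, 0.07 ± 0.14 for H2-Aa, 0.29 ± 0.17 for H2-Ab1 and 0.22 ± 0.17 for H2-Eb1 (SE), none of them called. Without brain knockout replicate 3 they were -0.08 for Cd74, -0.04 for H2-Aa, 0.49 for H2-Ab1 and 0.07 for H2-Eb1. Psmb8 in liver likewise went from 0.18 to -0.05 without knockout replicate 2.

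Markers of the immune cells a liver can hold differed between these libraries. The 6 dendritic cell markers, all with counts in every liver, summed to 16.4 to 20.1 CPM in the wild type and 18.1 to 21.8 CPM in the knockout, highest in knockout replicate 1 and next in wild-type replicate 1. Zbtb46 made up most of that sum, highest in knockout replicate 1 (266 counts) and 9.49 to 12.8 CPM in the other livers. Clec9a was also highest there (5.52 CPM), whereas Flt3 (0.473 CPM), Xcr1 (0.368 CPM), Itgax (1.37 CPM) and Cd209a (0.0526 CPM) were not. The 7 T and NK cell markers summed to 3.09 to 4.53 CPM in the wild type and 3.76 to 6.21 CPM in the knockout, highest in replicate 1 of the knockout. Cd4 gave 3.21 CPM of that highest sum, and 3 of the 7 (Cd4, Cd8a and Cd3g) were highest in that library, while Cd3e, Cd3d, Nkg7 and Ncr1 were not. The 5 B cell markers summed to 2.83 to 3.59 CPM in the wild type and 4.47 to 5.52 CPM in the knockout, where replicate 1 was the lowest. The 5 Kupffer cell markers summed to 128 to 176 CPM in the wild type and 140 to 338 CPM in the knockout, with the maximum, also of each of the 5, in knockout replicate 2, the library in which Psmb8 and Psmb9 were also highest. The 8 markers shared by microglia and macrophages had the same maximum, singly and summed, at 317 CPM, with 136 to 190 CPM in the other livers. The 4 markers of the sinusoidal endothelium summed to 228 to 277 CPM in the wild type and 246 to 286 CPM in the knockout, highest in knockout replicate 1, where Clec4g and Fcgr2b were highest and Stab2 and Lyve1 were not. The 5 endothelial markers were highest there too, at 215 CPM, with 171 to 201 CPM in the other livers, through Pecam1, Tek and Emcn but not Cdh5 or Kdr. The 4 markers of stellate cells and pericytes summed to 268 to 307 CPM in the wild type and 229 to 315 CPM in the knockout. The part of these cells in the levels was not tested.

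In brain the Kupffer cell markers were at or near 0 (0 to 0.0854 CPM in the wild type and all 5 at 0 in the knockout), whereas the 4 microglia markers summed to 55.1 to 86.9 CPM in the wild type and 58.7 to 83.7 CPM in the knockout and were not highest in knockout replicate 3. That library had the highest sums of 4 markers of border-associated macrophages (6.82 CPM, the other brains 4.59 to 6.07) and of 5 endothelial markers (51.7 CPM, the others 40.7 to 45.6). It also had those of 5 B cell markers (1.40 CPM, the others 0.492 to 1.02) and of the 4 sinusoidal endothelium markers (3.61 CPM, the others 1.63 to 3.03). Most single markers were not highest there. Of the 4 lists, only Mrc1, only Pecam1 and Cdh5, only Cd79a and Cd79b, and only Fcgr2b were. Cd79a and Cd79b had 5 to 9 counts there. Of the 7 T and NK cell markers, Cd3d, Nkg7 and Ncr1 were at 0 in all 6 brains, and most of the sum was Cd4, which was lowest in that library (5 counts, with 24 to 70 in the other brains). The 1 count of Cd8a in any brain was in knockout replicate 3. The part of these cells in the class II levels of the brain was not tested.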

How the data were processed

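Expected counts per gene, not normalized and not pooled over replicates, were deposited by the authors for 12 total RNA libraries; ribosomal RNA was depleted and libraries were stranded and single-end, per the labels' protocols. Cutadapt, STAR and the build mm10 are named in the submitters' processing notes; what counted the reads, and whether by strand, are not given in the sources used here. Between 5.06% and 5.71% of values per library were not whole, and expected counts were rounded before testing. All 12 columns matched a sample title, and 0 columns were without a sample.

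Tests used edgeR 4.0.16 (R 4.3.3): the quasi-likelihood F-test with robust estimation, TMM and a low-count filter (filterByExpr with the groups, at least 10 counts and 15 in total). P-values were adjusted over all genes tested (Benjamini-Hochberg, threshold 0.05). Each comparison of 2 groups used its own 6 libraries and the interaction all 12. The SE is the size of the log2 fold change over the square root of F. Ratios were tested by exact permutation. Replicate pairs differed by 27.2 to 228 times the degrees of freedom of a chi-square statistic, so each library counted separately.

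The members, the 4 pathway lists (59 genes) and the marker lists were chosen with earlier results of these data known. Of the listed genes, those named were up to 5 called in each direction with the largest change, or the 3 with the smallest p where none was called, and always Psmb10, Psmb5, Psmb6, Psmb7, Tap2, Tapbp, Nlrc5, Ciita and Irf1 (1 further gene of the rule, and 1 motif searched in the promoters, are not reported here); other names were chosen after their values were seen. All 55450 identifiers matched GENCODE M21 (GRCm38). RefSeq promoter windows (250 bases before to 50 after a start, GRCm38.p6) were held for 8 of 10 members; the window of H2-D1 lies in an annotated leader exon of 1 transcript and is not printed.

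Wild-type and knockout titles share the numbers 1 to 3. In liver, same-numbered libraries deviated together from their group means (r = 0.27, 0.27 and 0.33 over 14137 genes), so the numbers were taken to pair the livers. The main liver tests nevertheless left this pairing out, and the replicate block took it in as an alternative. With the block 2 genes were called in liver and 983 had an unadjusted p under 0.05 by edgeR, in place of 0 and 536. Alternatives were DESeq2 1.42.0 (size factors, Wald test), library totals, no filter, a filter at a mean of 1 CPM, no robust estimation, 1 fit of all libraries, a replicate block, summed class I counts (those of H2-K1 and H2-D1 alone were chosen after the data were seen), other lengths, and each replicate left out.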

Additional observations from a re-analysis of the deposited data

How the results depend on the processing

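All 10 members stayed lower in brain in both genotypes, and none was called in a knockout comparison or the interaction, under every alternative run; Psmb9, H2-Ab1 and H2-Eb1 dropped out in brain when a mean of 1 CPM was required. Of 747 alternative values of member fold changes, 30 changed sign, all in knockout comparisons or the interaction. Knockout over wild type, leaving out 1 library at a time gave -0.29 to 0.21 for H2-D1, -0.00011 to 0.32 for Psmb8, -0.0764 to 0.70 for Cd74 and -0.0351 to 0.84 for H2-Aa in brain. In liver it gave -0.0602 to 0.0236 for H2-K1, -0.0893 to 0.31 for Tap1, -0.0459 to 0.29 for Psmb8, -0.14 to 0.46 for Cd74, -0.38 to 0.36 for H2-Aa, -0.15 to 0.60 for H2-Ab1 and -0.19 to 0.52 for H2-Eb1. Without a change of sign it gave 0.0266 to 0.118 for H2-D1 in liver and 0.00783 to 0.125 for B2m in brain. For the interaction it gave -0.12 to 0.34 for H2-D1, -0.19 to 0.19 for Psmb8, -0.51 to 0.39 for Cd74, -1.01 to 0.16 for H2-Aa and -0.82 to 0.19 for H2-Eb1. A row that sums all listed class I genes is not the fold change of either heavy chain; it gave -0.00605 in brain, against the sign of H2-K1, and -0.0538 in liver, against that of H2-D1, where H2-Q10 has most of the counts. The sum of H2-K1 and H2-D1 alone, added after the data were seen, gave -0.00346 in brain, where H2-D1 has most of the counts, and 0.0147 in liver. The genes called over the whole table in liver numbered 10 with the DESeq2 Wald test, 4 without a filter, 2 with the replicate block and 0 to 1 with 1 library left out (1 without wild-type replicate 2), in place of 0; for the interaction they numbered 1 with DESeq2 and 2 with the block. The cause was not tested. The replicate block changed no member's call; in brain same-numbered libraries correlated at 0.66, 0.67 and -0.01. Numbers 1 and 2 thus deviated together and number 3 did not, and as the rule asked for every pair, the brains were not taken as paired. There the block lowered the common dispersion from 0.0587 to 0.0184, the SE of H2-D1 from 0.32 to 0.0846, and called 0 genes (406 at an unadjusted p under 0.05). With the longest transcript as the length, 6 of 10 members kept their place in the wild-type order of each tissue, the first 4 among them. The mean ratio of H2-D1 to H2-K1 was then 3.53 in wild-type brain and 0.504 in wild-type liver, in place of 4.51 and 0.645. Brain counts of 3 to 79 limit Tap1, Psmb8, Psmb9 and the class II genes.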
